A study of Mus musculus with 36 samples.

Results

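Snrpn, its overlapping partner Snurf, 6 further genes of the Prader-Willi and Angelman region of mouse chromosome 7 (Ube3a, Ndn, Magel2, Mkrn3, Peg12 and Atp10a) and Snrpb, the paralog of Snrpn on chromosome 2, were followed through the brains of Pogz-deficient mice. These 9 genes were taken by name from the 24421 genes listed for each tissue. Snrpn was chosen by its measured rise with Pogz loss in both tissues, so its values by genotype are a description and carry no test. The other 8 were chosen by position or as the paralog.

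The RNA came from the cerebellum and the hippocampus of 18 adult C57Bl/6 mice, 6 of each genotype with 3 males and 3 females. Control mice were Pogzfl/fl without Cre, cKO+/- mice were NesCre/+; Pogzfl/+ and cKO-/- mice were NesCre/+; Pogzfl/fl, so that 2, 1 and 0 Pogz alleles stayed intact where Cre acts. The Cre recombinase is driven by the Nestin promoter, which is active in neural precursors, and cells of vessels, meninges and blood in the same tissue keep their alleles. Both mutant genotypes carried Cre and the controls did not, so that an effect of Cre itself and of the first allele lost cannot be told apart. Each mouse is called by its name in the labels, and its cerebellum and hippocampus carry the same name.

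The region is a textbook case of genomic imprinting, in which a gene is read from the copy of only 1 parent. Snrpn, Snurf, Ndn, Magel2, Mkrn3 and Peg12 are read from the paternal copy, under an imprinting centre at the main Snrpn promoter. From further upstream of that promoter, brain cells also start long paternal transcripts that carry noncoding upstream exons and run on into Snhg14, the host of the small nucleolar RNA clusters and of the antisense transcript that silences paternal Ube3a in neurons. Snrpn encodes SmN, the form of the spliceosomal SmB protein that is abundant in neurons, and Snrpb encodes SmB itself.

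Which part of Snrpn the counts cover has to be said before its values. Of the 2380 exon bases listed for Snrpn, 1970 are also exons of Snurf on the same strand, and Snurf has 1 base of its own. Snurf held between 0 and 4 counts in every library and 20 counts over all 36. Among the 454 listed genes with at least 99% of their exon bases inside other genes of the same strand, 428 (94.3%) stood at 0 in every library, and so did 49 of 49 (100%) genes covered by genes of the other strand, against 2976 (12.2%) of all genes listed. Reads on exon bases that 2 genes share were thus not counted to either gene, and strand was not used. The Snrpn count is a count of its remaining 410 bases, which lie in 4 upstream exons on the minus strand of chromosome 7 (60140141 to 60140219, 60132250 to 60132397, 60097530 to 60097608 and 60071885 to 60071988, GRCm38), 79, 148, 79 and 104 bases long. The coding body that Snrpn shares with Snurf was not measured in these tables, and all Snrpn levels below are levels of the upstream exons.

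RefSeq (GRCm38.p6) places 4 transcription starts of Snrpn on the minus strand, and their promoters are shown because the counted exons lie upstream of the body promoter. Each window holds 250 bases before and 50 bases after the start, 5′ to 3′. Capitals mark the 49 bases that the 3 upstream promoters share letter for letter and, in the body promoter, the motif CGCATGCG.
Upstream promoter at chr7:60450128-60450427: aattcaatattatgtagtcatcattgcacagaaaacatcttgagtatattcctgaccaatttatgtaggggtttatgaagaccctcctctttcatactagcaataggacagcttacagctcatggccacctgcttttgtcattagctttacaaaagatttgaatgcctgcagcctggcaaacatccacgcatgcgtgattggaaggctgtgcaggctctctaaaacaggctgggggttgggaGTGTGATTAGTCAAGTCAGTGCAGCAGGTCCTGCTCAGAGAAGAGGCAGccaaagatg
Upstream promoter at chr7:60140176-60140475: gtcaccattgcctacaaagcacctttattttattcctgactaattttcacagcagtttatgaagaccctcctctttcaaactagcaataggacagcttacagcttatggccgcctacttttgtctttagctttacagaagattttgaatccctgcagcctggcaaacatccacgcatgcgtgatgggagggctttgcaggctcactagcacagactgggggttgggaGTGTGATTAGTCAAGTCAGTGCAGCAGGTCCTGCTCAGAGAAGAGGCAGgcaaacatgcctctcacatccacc
Upstream promoter at chr7:60047929-60048228: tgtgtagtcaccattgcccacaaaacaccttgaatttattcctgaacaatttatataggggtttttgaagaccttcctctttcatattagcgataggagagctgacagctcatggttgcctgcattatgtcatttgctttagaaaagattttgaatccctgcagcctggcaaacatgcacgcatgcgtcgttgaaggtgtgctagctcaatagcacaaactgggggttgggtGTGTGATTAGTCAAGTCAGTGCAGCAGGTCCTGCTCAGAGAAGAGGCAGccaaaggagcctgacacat
Body promoter at chr7:60005150-60005449: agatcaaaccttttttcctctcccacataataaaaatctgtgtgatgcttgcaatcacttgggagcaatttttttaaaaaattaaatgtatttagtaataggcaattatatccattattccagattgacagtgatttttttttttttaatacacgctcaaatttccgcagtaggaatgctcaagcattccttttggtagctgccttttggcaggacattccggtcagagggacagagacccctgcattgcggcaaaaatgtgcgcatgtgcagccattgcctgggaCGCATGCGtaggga
On the minus strand the first of the counted exons begins at 60140219, within the window of the upstream promoter whose start is at 60140225. The upstream promoter whose start is at 60047978 lies downstream of every counted exon, so that transcripts from it hold none of the counted bases. Pairwise identity was between 79.7% and 81.1% among the 3 upstream promoters and between 47.3% and 50.2% between each of them and the body promoter, which Snurf shares. The 49-base stretch was found in 4 promoters of 2 genes in the whole table, the 3 of Snrpn and that of Snhg14, which has the start at 60450177 in common with Snrpn. The upstream windows held 2, 3 and 4 CpG sites and the body window 7, against a median of 7 over all 32851 promoters.

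The motif CGCATGCG was picked after these letters were seen. It reads the same on both strands, each copy contains 2 of the CpG sites counted above, and it is the core of the motif known for the transcription factor NRF1. It stands at base 188, 173 and 180 of the upstream windows, counted from the 5′ end, and at base 287 of the body window. Over the 8 members with a promoter in the table, 6 of 11 windows held it (the 4 of Snrpn, that of Snurf, which is the same sequence as the body window, and that of Ndn). Over all promoters 1.87% held it. The motif was chosen from these windows and the upstream ones are much alike, so that setting these shares side by side tests nothing. A match is a description of these letters and not a binding site.

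Cerebellar libraries held 21421850 to 32544929 counts and hippocampal ones 17609321 to 45544188. Levels are given as CPM, counts scaled to the same library size with TMM factors fitted within each tissue. Snrpn rests on 24 to 38 counts per library in control cerebella. The hippocampal library of cKO-/- mouse Sample_1160 stood apart, with a median correlation of 0.886 with the other hippocampal libraries where those had 0.98 to 0.992, and it was left out of the hippocampal values unless it is named. Pogz itself, the deleted gene, checked the labels. Per the study, loxP sites flank only some of its exons, and the count is of the whole gene. The cKO-/- means of this count, 0.6605 of the control mean in the cerebellum and 0.679 in the hippocampus, thus do not measure how much intact Pogz remained. Per allele lost the Pogz count fell by 0.30 on the log2 scale in the cerebellum (adjusted p = 0.000356, edgeR) and by 0.28 in the hippocampus (adjusted p = 1.79e-07, edgeR), with every mutant library below every control library. The hippocampal neuron markers summed to 332 to 634 CPM in the hippocampus and 64.5 to 105 CPM in the cerebellum, and the cerebellar granule cell markers to 2560 to 5270 CPM in the cerebellum, as the tissue labels have it. In control mouse Sample_1129 the hippocampal library held 210 CPM of the granule cell markers, where no other hippocampal library was above 44.3 CPM.

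In the cerebellum, Snrpn lay at 0.768, 1.19 and 1.31 CPM (lowest, median and highest of 6 controls), at 1.71, 2.22 and 3.77 CPM in the 6 cKO+/- mice and at 3.46, 3.67 and 6.90 CPM in the 6 cKO-/- mice. The groups did not overlap with the controls, and mouse Sample_1433 of the cKO+/- group reached into the range of the cKO-/- group. The group means were 1.12 ± 0.205, 2.37 ± 0.724 and 4.17 ± 1.35 CPM (SD, n = 6 each), which is 2.11-fold and 3.73-fold the control mean.

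In the hippocampus, Snrpn lay at 1.43, 2.64 and 3.47 CPM in the 6 controls and at 6.02, 6.58 and 6.93 CPM in the 6 cKO+/- mice. The 5 cKO-/- mice Sample_936, Sample_1219, Sample_1371, Sample_1379 and Sample_1385 had 9.25, 11.8, 10.9, 9.77 and 9.83 CPM. No genotype overlapped with another, and the library of mouse Sample_1160 had 5.29 CPM, below every cKO+/- library and above every control. The means were 2.57 ± 0.681 (n = 6), 6.51 ± 0.358 (n = 6) and 10.3 ± 1.02 CPM (SD, n = 5), or 2.54-fold and 4.01-fold the control mean. A change in the number of cells that express a gene and a change of its RNA in each cell cannot be told apart in such bulk tissue.

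**Figure D1:**
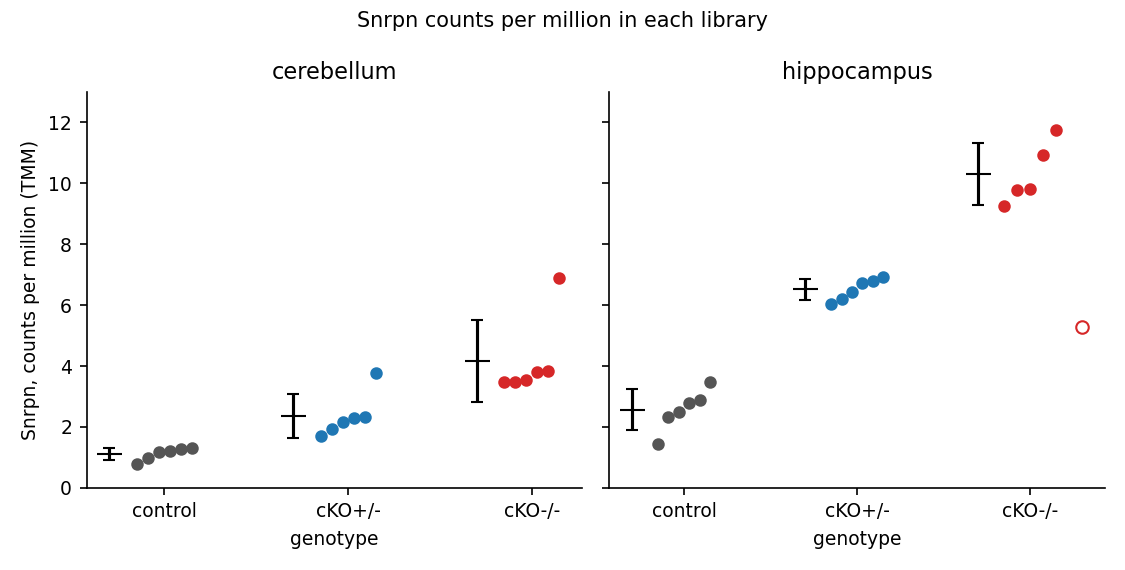
Snrpn in CPM (vertical axis, from 0) in each library by genotype, cerebellum on the left and hippocampus on the right. Filled points are libraries, the bars to their left are mean and SD, and the open circle is the hippocampal library of mouse Sample_1160, left out of the mean. In both tissues each mutant library lies above the highest control (1.31 and 3.47 CPM).

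Put per Pogz allele lost, the fitted log2 difference of Snrpn was 0.94 with a standard error (SE) of 0.111 in the cerebellum and 1.01 with an SE of 0.0911 in the hippocampus (17 libraries). Averaged over the alleles, as the fit takes each step as equal, this is 1.92-fold and 2.02-fold per allele lost. With genotype as a factor, cKO+/- and cKO-/- mice stood at 2.12-fold and 3.72-fold the controls in the cerebellum. In the hippocampus they stood at 2.535-fold and 4.04-fold. Since Snrpn was chosen for this contrast, no p is given. All cKO-/- libraries lying above all controls was met by 2.67% of the genes tested in the cerebellum and 1.53% in the hippocampus, and the same for cKO+/- libraries by 0.741% and 0.314%.

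A measure that the choice did not use is where the heterozygotes lie between the other groups. The departure of cKO+/- from the midpoint of control and cKO-/- was 0.14 in log2 for Snrpn in the cerebellum (adjusted p = 1, edgeR) and 0.34 with an SE of 0.123 in the hippocampus (adjusted p = 0.484, edgeR). In the cerebellum its sign hung on mouse Sample_1433, and it was -0.07 without that library. Neither departure passed the threshold, and neither did that of any other member. Of all genes tested, 3 (0.0214%) passed in the cerebellum and 0 (0%) in the hippocampus by edgeR, where 1425 of 14339 were below an unadjusted p of 0.05. Snrpn was among these (unadjusted p = 0.0139, edgeR), and its hippocampal departure stayed at 0.276 to 0.392 when 1 animal was left out. No other tool was run on this contrast.

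Snrpn did not separate the sexes by the test. Male libraries differed from female ones by -0.04 in log2 in the cerebellum (adjusted p = 1, edgeR) and by -0.07 in the hippocampus (adjusted p = 0.848, edgeR), each with the genotype in the model. In control mice the mean was 1.16 ± 0.152 CPM in females and 1.08 ± 0.279 CPM in males in the cerebellum, and 2.87 ± 0.57 and 2.27 ± 0.752 CPM in the hippocampus (SD, n = 3 each).

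The cerebellar libraries of mice Sample_1433 and Sample_1385 were the highest of their groups for Snrpn, with 3.77 and 6.90 CPM where the next were at 2.34 and 3.85 CPM. The same libraries held less of the 4 granule cell markers (2760 and 2560 CPM against 4040 to 4910 CPM in controls) and more of the 4 oligodendrocyte markers (7500 and 6800 CPM against 3420 to 5150 CPM). Neither was particular to these libraries. Mice Sample_1371, Sample_1379 and Sample_936 held 2870, 3450 and 3910 CPM of the granule cell markers, with Snrpn at 3.815, 3.47 and 3.85 CPM. The oligodendrocyte markers stood at 6800 and 8310 CPM in mice Sample_933 and Sample_936. The library of Sample_1433 also held 3140 CPM of the 5 choroid plexus markers, which were at 13.6 to 18.7 CPM in the controls. Mice Sample_933 and Sample_936 held 2330 and 3000 CPM of them, and had Snrpn at 2.34 and 3.85 CPM. Over the 18 cerebellar libraries, 0 of 4 granule cell, 0 of 4 oligodendrocyte and 0 of 4 tested choroid plexus markers passed the edgeR test of allele dosage. By the same test 3 of 4 meninges and fibroblast markers rose, as did 3 of 4 astrocyte markers, and their summed levels were 75.6 to 103 and 1350 to 1700 CPM in controls against 94.5 to 185 and 1940 to 2320 CPM in cKO-/- mice. Of all genes tested in the cerebellum, 13.7% were called. The part of any of these markers in the Snrpn values was not tested.

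These libraries come from animals whose numbers lie outside the run that holds every control. All controls are named from Sample_1129 to Sample_1192, and 7 mutant mice (Sample_933, Sample_938 and Sample_1433, and Sample_936, Sample_1371, Sample_1379 and Sample_1385) lie outside Sample_1120 to Sample_1219. With the 11 cerebellar libraries inside that run, a choice made after the values were seen, choroid plexus markers were at 11.2 to 18.7 CPM and granule cell markers at 4040 to 5270 CPM in every library, and Snrpn still differed by 0.815 in log2 per allele lost, or 1.73-fold in 3 cKO+/- and 3.12-fold in 2 cKO-/- mice. In the same 11 libraries the astrocyte markers still stood apart by genotype, at 1350 to 1700 CPM in controls and 1850 to 2020 CPM in mutants, and the meninges and fibroblast markers lay at 75.6 to 103 CPM in controls and 94.5 to 119 CPM in mutants. In the hippocampus the same choice leaves 1 cKO-/- mouse and gave 1.21. There the choroid plexus markers reached 4860 and 2360 CPM in control mice Sample_1129 and Sample_1170 and 1110 and 4920 CPM in cKO-/- mice Sample_1219 and Sample_1385, and Snrpn was at 2.34 and 2.79 CPM in those controls, within the range of the other 4. Other markers moved with allele dosage in the hippocampus by edgeR, where 1 of 4 meninges and fibroblast markers rose (summed level 27.6 to 93.2 CPM in controls and 55.5 to 166 CPM in cKO-/- mice), 1 of 4 astrocyte markers rose (3100 to 4470 and 3440 to 4160 CPM) and 1 of 4 hippocampal neuron markers fell (398 to 634 and 385 to 439 CPM). Of all genes tested in the hippocampus, 4.44% were called. The part of these markers in the hippocampal Snrpn values was not tested.

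**Figure D2:**
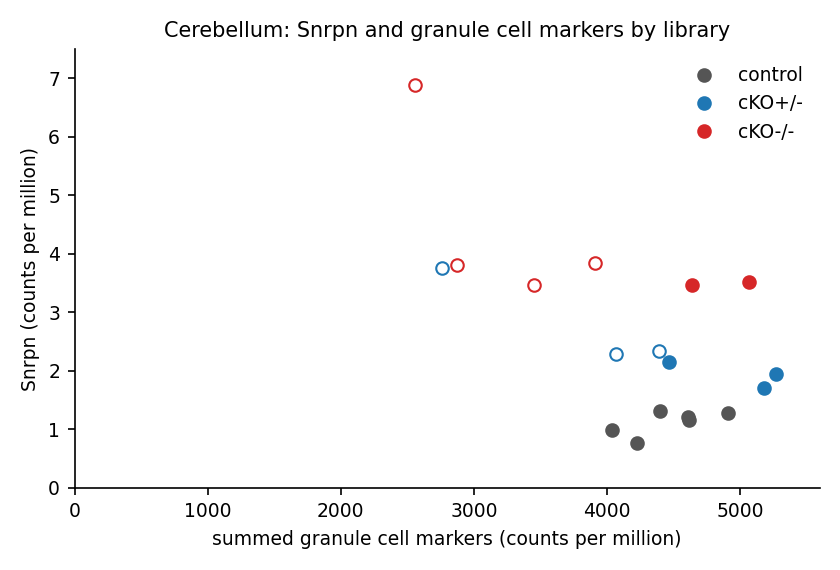
Snrpn (vertical axis, CPM) against the summed CPM of 4 cerebellar granule cell markers (horizontal axis) in the 18 cerebellar libraries, coloured by genotype. Open circles are mice named outside Sample_1120 to Sample_1219. The highest Snrpn values of the mutant groups, 3.77 CPM in cKO+/- and 6.90 CPM in cKO-/-, have 2760 and 2560 CPM of the markers. The cKO-/- mice Sample_1371, Sample_1379 and Sample_936, also below every control in the markers (2870, 3450 and 3910 CPM), have Snrpn at 3.815, 3.47 and 3.85 CPM.

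No other member passed the test as higher with Pogz loss. Of the 5 members other than Snrpn that passed the filter in the cerebellum, 1 was called and it fell (Atp10a), where 13.7% of all genes tested were called. Of the 6 in the hippocampus, edgeR and DESeq2 each called 0, where 4.44% of all genes were called by edgeR, and 2 (Snrpb and Ube3a) had an unadjusted p under 0.05. Their median log2 difference per allele lost was -0.02 in the cerebellum and 0.01 in the hippocampus, beside medians of 0.000867 and 0.00171 over all genes tested.

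**Figure D3:**
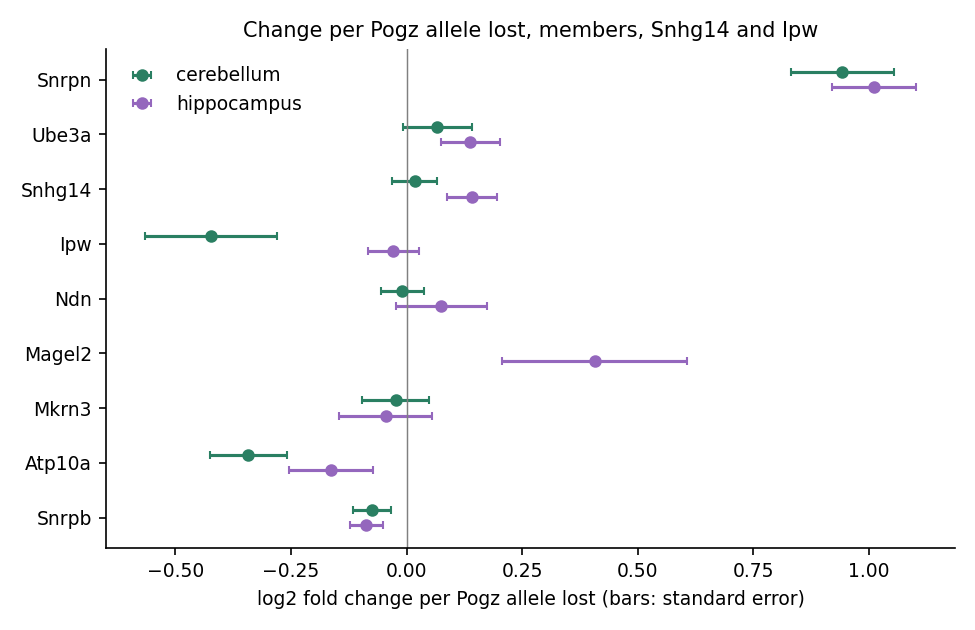
Log2 fold change per Pogz allele lost (horizontal axis) with its standard error, in the cerebellum (green) and the hippocampus (violet), for the members that passed the filter and for Snhg14 and Ipw. Snrpn lies at 0.94 and 1.01, and each of the others lies between -0.42 and 0.41. The values of Snrpn chose it and carry no test.

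Ndn encodes necdin, a MAGE family protein of postmitotic neurons, and had the highest level per length of the members. It lay at 183, 221 and 250 CPM in cerebellar controls (lowest, median, highest), 177, 215 and 252 CPM in cKO+/- and 185, 226 and 244 CPM in cKO-/- mice (n = 6 each). These ranges lie on top of each other, and the difference per allele lost was -0.01 in log2 (SE 0.047, adjusted p = 0.917, edgeR). In the hippocampus the controls reached from 154 to 286 CPM and the cKO-/- mice from 154 to 313 CPM (0.07, adjusted p = 0.704, edgeR). Snrpn and Ndn are both paternally read, and in the same libraries the fitted difference per allele was 0.94 for the one and -0.01 for the other in the cerebellum.

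Magel2, a neighbour of Ndn that encodes another MAGE protein and part of a ubiquitin ligase complex, was too low in the cerebellum for the filter. There it held 2 to 24 counts in 16 of 18 libraries, and 87 and 83 counts in mice Sample_1433 and Sample_1385 (2.66 and 2.82 CPM), the mice that were also highest in Snrpn. Its lowest, median and highest values were 0.0755, 0.293 and 0.412 CPM in control cerebella. They were 0.2175, 0.310 and 2.66 CPM in cKO+/- and 0.357, 0.689 and 2.82 CPM in cKO-/- cerebella, so that the groups overlapped. In the hippocampus Magel2 lay at 0.806, 1.85 and 2.90 CPM in controls, 1.44, 3.55 and 5.33 CPM in cKO+/- mice and 1.88 to 5.57 CPM in the 5 cKO-/- mice. The groups overlapped over most of their range, and 0.41 in log2 per allele lost (SE 0.2002) did not pass the test (adjusted p = 0.262, edgeR). The cKO+/- and cKO-/- means were 1.84-fold and 1.76-fold the control mean. Against control their unadjusted p was 0.0234 and 0.0465 (adjusted p = 0.398 and 0.223, edgeR).

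Mkrn3, which encodes a makorin RING-finger ubiquitin ligase known for restraining the onset of puberty, had a mean of 6.36 ± 1.49, 5.73 ± 0.845 and 6.14 ± 0.843 CPM over control, cKO+/- and cKO-/- cerebella (SD, n = 6 each). It differed by -0.02 in log2 per allele lost there (adjusted p = 0.856, edgeR) and by -0.05 in the hippocampus (adjusted p = 0.833, edgeR), and both signs turned in some of the alternatives. Peg12, an intronless gene whose protein binds the kinase GSK3, held 0 to 12 counts in every library and passed no filter. No fold is given for Peg12 or Snurf, since a count of 0 is compatible with up to 3 counts.

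Ube3a, the maternally read ubiquitin ligase of Angelman syndrome, lay at 60.7, 98.9 and 115 CPM in cerebellar controls, 95.7, 100.5 and 113 CPM in cKO+/- and 66.8, 112 and 124 CPM in cKO-/- mice. The groups overlapped, and 0.07 in log2 per allele lost did not pass (adjusted p = 0.582, edgeR). In the hippocampus the means were 64.9 ± 10.2, 67.0 ± 12.1 and 79.3 ± 14.1 CPM (SD, n = 6, 6 and 5), a difference of 0.14 (adjusted p = 0.235, edgeR). Strand was not used in the counting, so that reads of Ube3a and of its antisense transcript cannot be told apart.

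Atp10a, a phospholipid flippase at the edge of the region, was the 1 member other than Snrpn called by allele dosage, and it fell in the cerebellum. It lay at 15.35, 19.1 and 23.4 CPM in controls, 11.9, 15.9 and 22.0 CPM in cKO+/- and 8.53, 11.6 and 15.4 CPM in cKO-/- mice (n = 6 each). The highest cKO-/- library (15.4 CPM) and the lowest control (15.35 CPM) overlapped by their edges, and the other 5 cKO-/- libraries lay below every control. The fall was 0.34 in log2 per allele lost (SE 0.083, adjusted p = 0.0123, edgeR), and the cKO-/- mean was 0.618 of the control mean. The lowest values, 8.53, 9.68 and 9.79 CPM, were those of mice Sample_1385, Sample_1371 and Sample_1379, whose granule cell markers were also the lowest of their group. Within the animals named Sample_1120 to Sample_1219 the difference was -0.20 (adjusted p = 0.266, edgeR), and with a covariate for that range -0.23 (adjusted p = 0.23, edgeR). In the hippocampus it was -0.16 (adjusted p = 0.33, edgeR), and the difference between the tissues was 0.17 (adjusted p = 0.597, edgeR).

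Snrpb, the paralog, did not pass the test in either tissue. In the cerebellum it lay at 87.9, 103 and 122 CPM in controls and 75.3, 91.5 and 107 CPM in cKO-/- mice (n = 6 each), -0.08 in log2 per allele lost (adjusted p = 0.221, edgeR). In the hippocampus the controls had 67.9 to 85.3 CPM and the 5 cKO-/- mice 71.5, 69.2, 64.2, 61.5 and 67.5 CPM, -0.09 per allele lost (SE 0.0352, adjusted p = 0.174, edgeR). The library of mouse Sample_1160 held 175 CPM, and with it the hippocampal difference turned to 0.08 (adjusted p = 0.688, edgeR).

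Per length of the bases counted, Snrpn upstream exons came to 3.02 ± 0.723% of Snrpb in control cerebella and 9.46 ± 3.03% in control hippocampi (SD, n = 6). Fragments that reach from these exons into the body shared with Snurf may not have been counted, so that these percentages may be too low. In every control mouse this ratio was higher in the hippocampus, by 1.62 ± 0.606 in log2 (SD, n = 6), and the exact 2-sided permutation test over the 6 mice gave p = 0.03125, the smallest it can give. The ratios were 6.76 ± 2.47% and 12.6 ± 4.72% in cKO+/- and cKO-/- cerebella and 24.8 ± 2.65% and 42.3 ± 4.78% in hippocampi (SD, n = 6 each, 5 for the last), which follows from the values above.

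The difference of the allele effect between tissues was tested for the other members in 35 libraries. It passed for 0 of 6 by edgeR, with 0 at an unadjusted p under 0.05, where 1.63% of all genes tested passed. No other tool was run on this contrast. The 6 differences lay between -0.56 (Magel2) and 0.17 (Atp10a) in log2, and that of Magel2 turned to 0.0114 with a covariate for animals named outside Sample_1120 to Sample_1219. For Snrpn the effects are those given above, 0.94 and 1.01.

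The control mice show how the members are set in each tissue, a contrast that the choice of Snrpn did not use. Its main fit took the libraries of a mouse as independent. Of the 6 members that could be tested, 4 were lower in the hippocampus (Mkrn3, Atp10a, Ube3a and Snrpb), 1 was higher (Snrpn) and Ndn did not pass. Between these tissues 71.9% of all genes tested were called, 36.7% lower and 35.2% higher in the hippocampus, so that a call says little and the sizes matter more. Snrpn was 2.43-fold higher in the hippocampus (log2 1.28, SE 0.201, adjusted p = 6.45e-05, edgeR). Mkrn3 was at 0.272 of its cerebellar level (log2 -1.88, adjusted p = 2.04e-07, edgeR), and Atp10a and Snrpb at 0.643 and 0.78 (adjusted p = 0.000775 and 0.000389, edgeR). Ube3a was at 0.734 (adjusted p = 0.0196, edgeR), a call that was lost without mouse Sample_1129 (0.0691) or mouse Sample_1170 (0.0932). Ndn had 220 ± 26.3 and 222 ± 55.5 CPM (adjusted p = 0.592, edgeR).

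On the scale of CPM per kilobase of exon that no other gene shares, the order of levels in the control cerebellum was Ndn at 133 ± 16.0, Snrpb at 92.1 ± 9.94, Ube3a at 15.3 ± 3.42, Atp10a at 3.53 ± 0.655, Snrpn at 2.73 ± 0.501, Mkrn3 at 2.50 ± 0.587 and Magel2 at 0.0571 ± 0.0264 (SD, n = 6). The libraries of Snrpn (1.87 to 3.19) overlapped with those of its neighbours in this order, Atp10a (2.81 to 4.28) and Mkrn3 (1.497 to 3.225). In the control hippocampus the order was Ndn at 134 ± 33.6, Snrpb at 67.3 ± 5.76, Ube3a at 10.6 ± 1.65, Snrpn at 6.26 ± 1.66, Atp10a at 2.13 ± 0.337, Mkrn3 at 0.643 ± 0.167 and Magel2 at 0.396 ± 0.177. There Snrpn had moved above Atp10a, with no overlap between their libraries (3.49 to 8.47 against 1.64 to 2.46), and Mkrn3 and Magel2 overlapped. Since fragments that reach into the body shared with Snurf may be missing, the place of Snrpn in both orders may be too low.

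**Figure D4:**
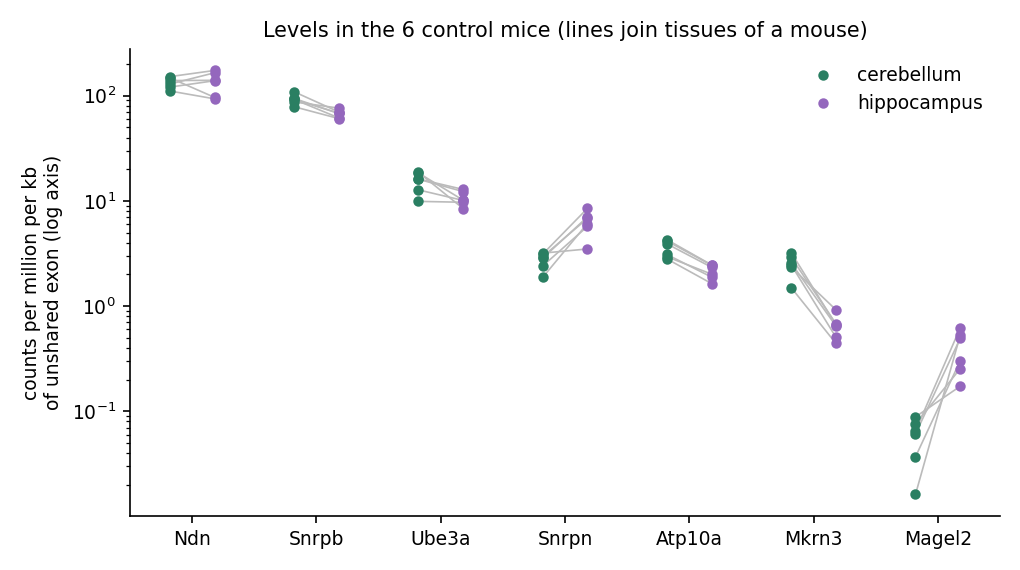
Levels of 7 members in the 6 control mice, in CPM per kilobase of unshared exon (vertical log axis), with the cerebellum in green, the hippocampus in violet and a line between the tissues of each mouse. Snrpn and Magel2 rise from the cerebellum to the hippocampus in every mouse, Mkrn3 falls in every mouse, and Ndn lies at 133 and 134 on average. The smallest rise of Snrpn, in mouse Sample_1155, is from 3.185 to 3.489. The TMM factors were fitted within each tissue, so that each line joins values scaled separately.

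Of the 11 other genes of the Prader-Willi and Angelman region on a fixed list, 8 could be tested in the cerebellum and 10 in the hippocampus. Cyfip1, a member of the actin-regulating WAVE complex, rose by 0.12 in log2 per allele lost in the cerebellum (adjusted p = 0.0367, edgeR) and was the 1 gene called by edgeR. DESeq2 called 3 of the 8, Cyfip1 and Nipa1, which rose, and Ipw, which fell, and edgeR gave Nipa1 a difference of 0.18 (adjusted p = 0.0545). The exons of Cyfip1 overlap those of Nipa2 on the other strand over 1368 bases, and the call was lost within the animals named Sample_1120 to Sample_1219. In the hippocampus 0 of 10 were called by edgeR and 1 (Herc2) by DESeq2, with 4 at an unadjusted p under 0.05. Of all genes tested, edgeR called 13.7% in the cerebellum and 4.44% in the hippocampus, so that its counts here are near what any genes gave. The list's median was 0.04 and 0.05, beside 0.000867 and 0.00171 over all genes.

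Snhg14, the noncoding transcript that continues from Snrpn, bears most directly on it. The files list 2193 exon bases for Snhg14 (59969577 to 59974431), a small part of the RefSeq span of 59272737 to 60450177. It lay at 30.6, 33.4 and 36.5 CPM in cerebellar controls and 27.5, 31.4 and 43.2 CPM in cKO-/- mice (n = 6 each). The cKO-/- mice thus lay on both sides of the controls (0.02 per allele lost, adjusted p = 0.839, edgeR). In the hippocampus the controls had 13.2 to 17.9 CPM and the 5 cKO-/- mice 15.1 to 22.65 CPM, 0.14 per allele lost (SE 0.0543, adjusted p = 0.152, edgeR). Ipw, another noncoding exon set of this transcript, was at 11.6, 13.1 and 37.6 CPM in cerebellar controls and 7.13, 10.9 and 15.1 CPM in cKO-/- mice. Its fall of 0.42 per allele lost missed the threshold (adjusted p = 0.0545, edgeR), and control mice Sample_1129 and Sample_1190 alone held 37.6 and 28.8 CPM where the other 4 were at 11.6 to 13.2 CPM.

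Along the chromosome, 59 genes besides Snrpn are listed within 5 Mb of it. In the cerebellum 5 of 30 tested were called (16.7%, against 13.7% of all genes), namely Siglech, Cyfip1, B230209E15Rik and Fam189a1, which rose, and Atp10a. In the hippocampus 2 of 33 were called (6.06%, against 4.44%), B230209E15Rik and A330076H08Rik, and both rose. Their median was 0.04 and 0.05 in log2 per allele lost. B230209E15Rik, an uncharacterised transcript 1389191 bases from Snrpn, rose by 1.07 (SE 0.192, adjusted p = 0.00161, edgeR) in the cerebellum and by 0.37 (SE 0.0828, adjusted p = 0.0159, edgeR) in the hippocampus. Within the animals named Sample_1120 to Sample_1219 it kept 0.87 in the cerebellum (adjusted p = 0.00484, edgeR) and was the 1 gene of the window still called there, and none was called in the hippocampus, where B230209E15Rik had 0.21 (adjusted p = 0.358, edgeR). Siglech is a microglial gene. In the cerebellum 2 of 4 microglial markers rose, and the summed level of the 4 was 55.7 to 61.6 CPM in controls and 57.2 to 94.9 CPM in cKO-/- mice, ranges that overlap. The part of these markers in the rise of Siglech was not tested.

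**Figure D5:**
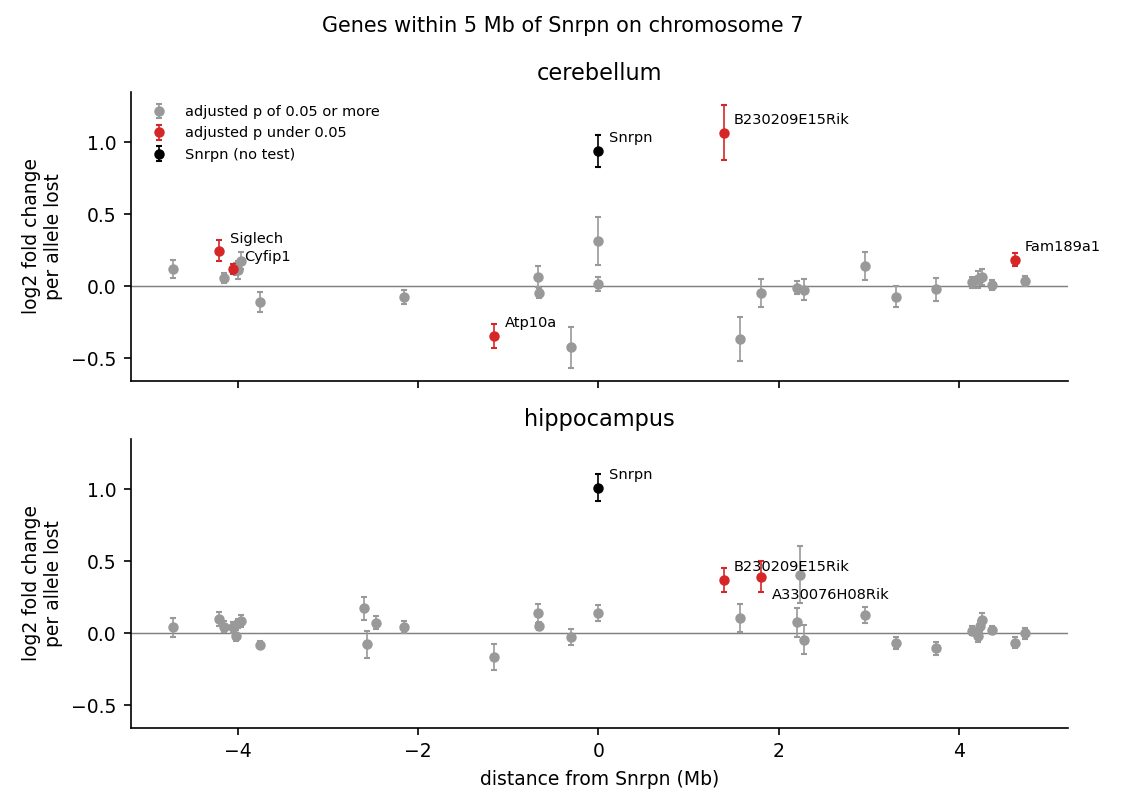
Log2 fold change per Pogz allele lost (vertical axis, bars are standard errors) of the genes tested within 5 Mb of Snrpn against their distance from it in Mb, cerebellum above and hippocampus below. Red points have an adjusted p under 0.05 by edgeR, the black point is Snrpn, shown without a test. Apart from Snrpn and B230209E15Rik (1389191 bases away), the genes lie between -0.42 and 0.41 in both tissues.

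The partners of SmN in the splicing machinery were measured as 2 lists. Of the 6 other Sm core proteins, Snrpd1, Snrpd2, Snrpd3, Snrpe, Snrpf and Snrpg, edgeR and DESeq2 called 0 in either tissue, with 0 and 2 at an unadjusted p under 0.05, and their medians were -0.03 and 0.03. Of 11 further proteins of the U1 and U2 particles edgeR called 0 in either tissue, with 3 and 2 at an unadjusted p under 0.05, and DESeq2 called 1 (Sf3a2, in the cerebellum). Their medians were -0.07 and -0.04. Of all genes tested, edgeR called 13.7% in the cerebellum and 4.44% in the hippocampus, so that counts of 0 in lists this short say little. The summed level of the Sm core genes in the hippocampus was 90.3 to 106 CPM in 17 libraries and 319 CPM in that of mouse Sample_1160.

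Imprinted genes elsewhere in the genome gave 7 calls of 42 tested in the cerebellum and 2 of 42 in the hippocampus by edgeR, where 13.7% and 4.44% of all genes were called, so that the counts are near what any genes gave. DESeq2 called 8 and 3, with Kcnq1ot1 added in the cerebellum and Usp29 in the hippocampus. In the cerebellum 4 rose and 3 fell. Igf2, which encodes a growth factor, rose by 0.58 per allele lost (adjusted p = 0.000213, edgeR). Igf2 is known to be abundant in meninges, and the 3 meningeal and fibroblast markers that rose beside it are given above, whose part in the rise of Igf2 was not tested. Airn, the noncoding transcript antisense to Igf2r, fell by 0.34 (adjusted p = 0.00285, edgeR). Mirg, a microRNA host transcript, fell by 0.39 (adjusted p = 0.0286, edgeR), and Rasgrf1, a guanine nucleotide exchange factor of neurons, fell by 0.23 (adjusted p = 0.0291, edgeR). Rasgrf1 also fell in the hippocampus, by 0.20 (adjusted p = 0.00109, edgeR), and Ddc, which makes dopamine and serotonin, rose by 0.40 (adjusted p = 0.0247, edgeR). Within the animals named Sample_1120 to Sample_1219, Igf2 and Rasgrf1 were still called in the cerebellum, and none in the hippocampus. Of the factors that hold imprints, such as Zfp57, Trim28, Setdb1 and Dnmt1, edgeR called 0 of 10 in the cerebellum (3 at an unadjusted p under 0.05) and 0 of 11 in the hippocampus (1 at an unadjusted p under 0.05), and DESeq2 called 1 (Setdb1, in the cerebellum). Their medians were -0.08 and -0.03. For the 42 imprinted genes the medians were 0.01 and 0.03.

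The genes most like Snrpn across libraries were sought among 13586 genes tested in both tissues, by the correlation of log2 CPM over the 18 cerebellar and the 17 hippocampal libraries, ranked by the smaller of both. All points share the 3 genotypes, so that any gene following Pogz dosage ranks high. Dach2 on chromosome X came first (r = 0.898 and 0.938), followed by A730017C20Rik (0.969 and 0.897), Zfp941 (0.89 and 0.927), Il33 (0.907 and 0.868) and 4930447C04Rik (0.89 and 0.865). None lies within 5 Mb of Snrpn, and Zfp941 alone is on chromosome 7. Of the members, Ube3a came nearest at rank 2156 (0.223 and 0.351), and Ndn stood at rank 3393 (0.0918 and 0.157). Atp10a and Snrpb ran against Snrpn (-0.751 and -0.307, and -0.564 and -0.543), and Pogz itself had -0.86 and -0.908.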

How the data were processed

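Poly(A) RNA-seq of the cerebellum and hippocampus of 18 mice was analysed from the deposited gene counts. Per the labels and the methods, the authors aligned reads with STAR (250a) to mm9 and counted them per gene, and the deposited values are raw counts without normalization. The coordinates in the tables lie inside the RefSeq spans of GRCm38, which is the build used here. The use of strand is not given in the sources used here. Promoter sequences came from RefSeq (GRCm38.p6), where 8 of 9 members had an entry.

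From the counts, CPM values with TMM factors were computed, and every gene that exceeded 1 CPM in 6 or more libraries entered the quasi-likelihood F-test of edgeR 4.0.16 (R 4.3.3), in a model of sex and Pogz allele number, with Benjamini-Hochberg adjustment over all genes tested at 0.05. Signs are per allele lost. The hippocampal fit used 17 libraries, without that of mouse Sample_1160. The study left out 1 outlier RNA sample that it does not name. Tissues were compared in the 6 control mice, and the ratio of Snrpn to Snrpb per length by an exact permutation of signs. Animal numbers in the labels pair the tissues of a mouse, and the deviations of its libraries from the group means correlated with a median r of 0.267 in controls (from -0.0122 to 0.43, 5 of 6 above 0.1).

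Promoters were aligned with Biopython 1.88. Tried instead were genotype as a factor, a model without sex, DESeq2 1.42.0, no filter on low counts, RLE size factors, all 18 hippocampal libraries, a term for the 7 animals not named within Sample_1120 to Sample_1219, the animal as a block and each animal left out. The use of only the animals named Sample_1120 to Sample_1219 was chosen after the data were seen. Members and lists were chosen with earlier results of these data known. Named genes are the 9 members, the 5 genes most like Snrpn by the smaller r of both tissues, genes within 5 Mb past the threshold, at most 4 genes per list and tissue past the threshold by smallest p, and Pogz. Sf3a2, Setdb1, Herc2, Nipa1, Kcnq1ot1 and Usp29, which DESeq2 alone called, Snhg14, Ipw and the granule cell figure were chosen after their values were seen. Within a tissue the labels call the samples separate mice, so the p-values of the fits within a tissue measure the spread between mice. The main edgeR fits over both tissues took the cerebellar and hippocampal libraries of a mouse as independent, and the animal as a block was the alternative.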

Additional observations from a re-analysis of the deposited data

Results flagged for a closer look

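Of 49 groups of 5 or 6 libraries tested over the members, 9 held a library that lay apart from the rest of its group by the size of the gap to its nearest neighbour. Chance alone flags about 1 in 20 groups, and the groups share libraries. Mouse Sample_1433 gave 4 of the 9 and mouse Sample_1385 gave 2.

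In the cerebellum, Snrpn stood at 3.77 CPM in cKO+/- mouse Sample_1433 (next 2.34) and at 6.90 CPM in cKO-/- mouse Sample_1385 (next 3.85). In the same libraries Magel2 stood at 2.66 CPM (next 0.792) and at 2.82 CPM (next 0.897). Both libraries had fewer counts of granule cell markers than any control, as given in the report. So had the cerebella of mice Sample_936, Sample_1371 and Sample_1379, which did not stand apart in Snrpn or Magel2. The part of these markers in the Snrpn and Magel2 levels was not tested. In the hippocampus of mouse Sample_1433, Ube3a was the highest of its group at 90.5 CPM (next 67.3) and Mkrn3 the lowest at 0.882 CPM (next 1.42).

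The remaining 3 rest on a few counts. Snurf was at 0.186 CPM (4 counts) in the cerebellum of cKO-/- mouse Sample_1371, where the others had 0, and Peg12 was at 0.311 CPM in cKO+/- mouse Sample_1189 (next 0.184) and at 0.374 CPM in cKO-/- mouse Sample_936 (next 0.136), 10 counts each.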

How the results depend on the processing

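For Snrpn, the log2 difference per allele lost was 0.78 to 0.97 in the cerebellum and 0.93 to 1.21 in the hippocampus over all alternatives. Of the members other than Snrpn, Atp10a in the cerebellum was the 1 called by dosage, and the count fell to 0 with the covariate for animal numbers outside the control range (-0.23) and with animals named Sample_1120 to Sample_1219 only (-0.20). It was called in every fit that left out 1 animal (-0.39 to -0.29, adjusted p = 0.00792 to 0.0325, edgeR). The cause was not tested. The higher Snrpn to Snrpb ratio in the hippocampus kept its direction without any 1 control mouse (1.48 to 1.83), where 5 mice cannot give an exact permutation p under 0.0625. With the animal as a replicate block, the count of members called between control tissues was 5 and the count for the difference of the allele effect 0, as without it, and the block changed no other call. Ube3a between control tissues lay at -0.54 to -0.32 when 1 mouse was left out.

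Some values that no test called turned their sign. All but the tissue difference of Magel2 (-0.555) lay within 0.14 of 0 as first fitted. With animals named Sample_1120 to Sample_1219 only, these were Ndn (0.00549) and Mkrn3 (0.0628) in the cerebellum. With the covariate for animal numbers these were Mkrn3 in the cerebellum (0.0759), the cerebellar departure of Snrpb (0.0158), and the tissue difference of Ube3a (-0.0391) and Magel2 (0.0114). With all 18 hippocampal libraries these were Mkrn3 (0.0153), Snrpb (0.0756) and the departure of Snrpb (-0.139), and with all 36 libraries the tissue difference of Snrpn (-0.0218), Ube3a (-0.0268), Mkrn3 (0.0286) and Snrpb (0.143). Leaving out 1 animal gave -0.0281 to 0.0143 for Ndn and -0.0709 to 0.012 for Mkrn3 in the cerebellum and -0.124 to 0.0185 for Mkrn3 in the hippocampus. The cerebellar departures were -0.067 to 0.236 for Snrpn, -0.00435 to 0.0847 for Ube3a, -0.087 to 0.027 for Ndn, -0.0163 to 0.152 for Atp10a and -0.0403 to 0.0184 for Snrpb. The hippocampal departures were -0.0937 to 0.084 for Mkrn3, -0.0751 to 0.214 for Atp10a and -0.000105 to 0.0672 for Snrpb.

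Genes near 1 CPM, such as cerebellar Magel2 and every Snrpn level in cerebellar controls (24 to 38 counts), rest on few counts, and Snurf and Peg12 could not be compared at this depth. The bound given for Snurf and Peg12 covers counting error only, while the SDs and SEs include the spread between libraries.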
